A study of Homo sapiens with 267 samples.

Results

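The circadian clock genes PER1, PER2, CRY1, CRY2, NR1D1, NR1D2, ARNTL, CLOCK, BHLHE40 and DBP were followed in libraries of K562 cells prepared on the Fluidigm C1. The set was taken as the rows of the count table that carried these symbols, and all 10 were found among 63677 genes. ARNTL is listed under its current symbol BMAL1 in the annotation. The genes were chosen by their place in the clock and by a measured value of these same data, the lower PER1 level in the imatinib-labelled libraries, so the values of the clock genes between the stains of that run are given as a description, without a test.

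K562 is an established leukaemia line driven by the BCR-ABL kinase, and the study tested a reversible crosslinker, DSP, as a fixative for such cells. Libraries fell into 3 sets by the start of their titles, called runs here. Since fresh cells and, on later days, fixed cells of a batch were captured, a run may hold several captures. The Hoechst run held untreated cells stained with Hoechst 33342 and propidium iodide, labelled as passage 90 to 92 (82 libraries kept of 96). The benzene run held untreated cells stained with CellTracker Green CMFDA (31 kept of 36 with counts) and cells stained with CellTracker Orange CMRA that had received 10 mM benzene for 3 h (34 kept of 35). The imatinib run held untreated Green cells (50 kept of 51) and Orange cells that had received 1 µM imatinib, an inhibitor of the BCR-ABL kinase, for 1 h (45 kept of 45). Both CellTracker runs were labelled as passage 20 to 22 and also carried the LIVE/DEAD Fixable Red stain. The labels write the passage with the unit hours. Dye and drug coincided in both runs and cannot be told apart. Each run was 1 culture batch, and the paper describes Green and Orange as separately stained portions of the cells of an experiment. The Hoechst run used a different lot of K562. The labels used here did not say which libraries were fresh, fixed, bulk or from empty capture sites, so each group may mix them.

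The circadian clock is a loop of transcription factors that runs in most cell types. CLOCK and ARNTL (BMAL1) pair on E-box sequences and switch on the PER, CRY, NR1D, DBP and BHLHE40 genes, PER and CRY proteins return to repress that pair, and the nuclear receptors NR1D1 and NR1D2 (REV-ERBα and REV-ERBβ) repress ARNTL. PER1 and, in some cells, other clock genes also respond within the hour to kinase signalling through CREB, and cells that have not been synchronised, such as those of a suspension culture, hold different clock phases at any one time.

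To show the sequence context of the genes that the results turn on, the region from 250 bases before to 50 bases after each start site was taken from RefSeq (GRCh38.p14) and placed on GRCh37 by exact match, which gave 14 windows for the 10 genes. Letters searched on both strands were the E-box CACGTG, the D-box TTATGTAA, the cAMP response element TGACGTCA, its half-site TGACG, which is part of the full element, and the ROR half-site AGGTCA. The 3 genes with an E-box are shown, with E-boxes and, in NR1D2, the D-box on the other strand in capitals.
PER1, chr17:8055673-8055972, minus strand, E-box 173 bases before the start: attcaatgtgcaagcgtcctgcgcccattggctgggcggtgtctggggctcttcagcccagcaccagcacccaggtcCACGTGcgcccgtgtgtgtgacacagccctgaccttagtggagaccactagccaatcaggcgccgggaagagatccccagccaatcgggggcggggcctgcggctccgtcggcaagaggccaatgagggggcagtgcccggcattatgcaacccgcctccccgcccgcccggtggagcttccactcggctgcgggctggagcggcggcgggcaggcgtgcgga
NR1D2, chr3:23987362-23987661, plus strand, E-boxes 155 and 105 and D-box 194 bases before the start: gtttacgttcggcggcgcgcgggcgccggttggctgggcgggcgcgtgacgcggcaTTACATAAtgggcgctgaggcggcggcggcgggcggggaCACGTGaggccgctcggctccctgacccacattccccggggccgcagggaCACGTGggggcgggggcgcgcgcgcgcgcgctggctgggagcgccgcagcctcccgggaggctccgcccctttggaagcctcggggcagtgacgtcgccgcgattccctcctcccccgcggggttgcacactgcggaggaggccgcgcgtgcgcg
BHLHE40, chr3:5020872-5021171, plus strand, E-box 245 bases before the start: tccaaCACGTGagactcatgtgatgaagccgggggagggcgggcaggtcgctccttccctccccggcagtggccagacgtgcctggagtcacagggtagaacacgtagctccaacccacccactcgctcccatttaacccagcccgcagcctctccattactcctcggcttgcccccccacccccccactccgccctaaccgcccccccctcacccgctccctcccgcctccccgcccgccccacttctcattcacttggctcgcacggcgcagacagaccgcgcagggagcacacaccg

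The E-box letters stood in 3 of the 14 clock gene windows and in 7.26% of all 35116 windows of this length. The D-box was in 1 window of a clock gene and in 0.886% of all windows. The half-site TGACG was in 7 windows, of PER2, CRY1, CRY2, CLOCK and NR1D2 (24.6% of all windows), the full element in none (1.85% of all windows), and the ROR half-site in 4 windows, of PER1, CRY2 and ARNTL (13.8% of all windows). These matches describe the letters only and were not tied to binding.

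Kept libraries held 50358 to 2043351 reads on genes (median 1283275). The median number of genes with more than 2 reads was 7410.5 in the Hoechst run, 5963 and 5859.5 in Green and Orange of the benzene run, and 8082 and 7797 in Green and Orange of the imatinib run. All 9 K562 markers were detected in over 50% of libraries of every group, with GATA1 in 91.2 to 100% and PRAME in 100% of libraries. Of 7 matched markers of other cell types, CD3D and EPCAM were present (8.84 to 130 CPM and 34.2 to 49.8 CPM of the summed reads), and the list summed to a median of 29 to 138 CPM per library, highest in the Hoechst run. CD3E, MS4A1, CD14 and COL1A1 were at or near 0 with at most 1.71 CPM. The part of CD3D and EPCAM in the results was not tested.

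A gene was called detected in a library with more than 2 reads, and levels are counts per 1000000 reads on genes (CPM). BHLHE40, PER2 and CLOCK were the most widely detected clock genes, in 74, 69.4 and 69.4% of the 242 kept libraries. CRY1 was detected in 57.9%, CRY2 in 33.1%, NR1D2 in 27.7%, PER1 in 26.9% and NR1D1 in 14.5%. DBP (6.20%) and ARNTL (1.24%) were rarely detected. The median library had 4 of the 10 genes detected in the Hoechst run, 3 and 2.5 in Green and Orange of the benzene run, and 5 and 4 in Green and Orange of the imatinib run, an order that ran with the number of genes detected per library.

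**Figure D1:**
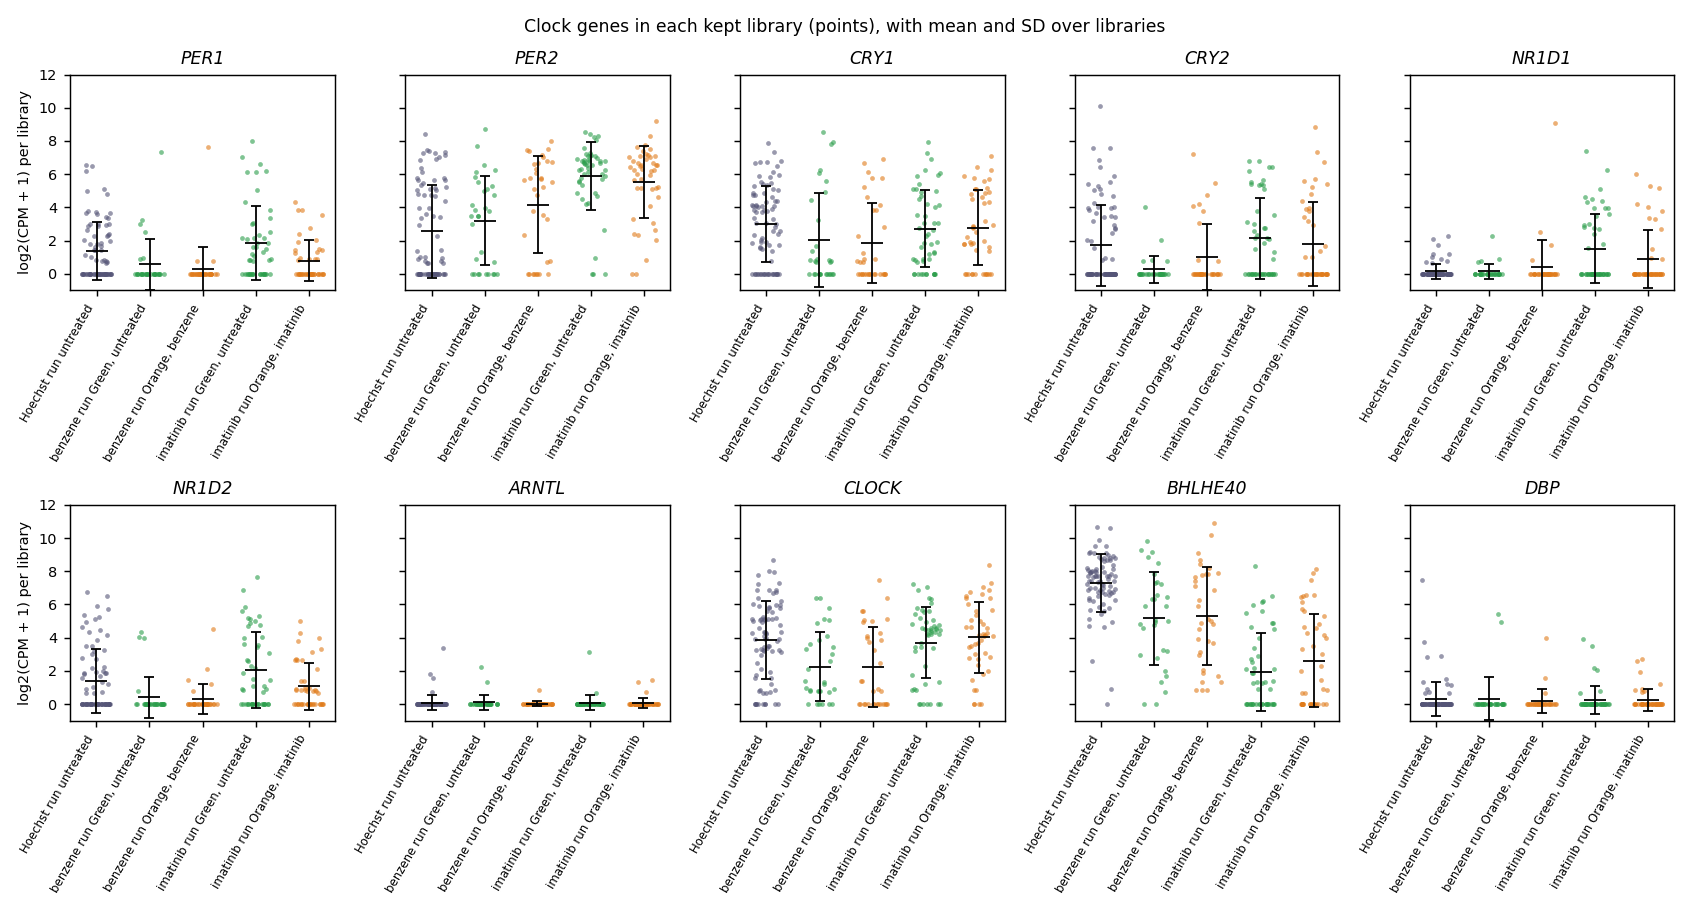
Level of each clock gene as log2(CPM + 1) in every kept library (points) of the 5 groups, with the mean and SD over libraries in black. BHLHE40 lies high in the Hoechst and benzene runs and low in the imatinib run, PER2 is highest in the imatinib run, and ARNTL and DBP lie at or near 0 in almost all libraries.

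Per kilobase of exon, the level of the summed reads was highest for BHLHE40 in the Hoechst run (74.7 CPM per kb) and in Green and Orange of the benzene run (41.2 and 53.9). In the imatinib run PER2 led instead, at 14.4 CPM per kb in Green and 12.6 in Orange. ARNTL was last of the 10 in every group, at no more than 0.0305 CPM per kb. In the Hoechst run CRY1, PER2 and CRY2 followed BHLHE40 at 4.47, 4.04 and 4.0 CPM per kb, levels much closer to each other than the spread between libraries.

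The activating pair was measured unevenly. CLOCK, a histone acetyltransferase and DNA-binding partner of ARNTL (ENSG00000134852, chromosome 4, 56294070 to 56413076 on GRCh37), ranged from 0 to 408 CPM in the Hoechst run with a median of 16.9. Its medians in Green and Orange were 1.54 CPM (highest 83.8) and 1.22 CPM (highest 174) in the benzene run, and 20.2 CPM (highest 152) and 16.5 CPM (highest 334) in the imatinib run. The benzene run was thus low and the others alike, with ranges that overlapped in all 5 groups. CLOCK was detected in 76.8% of Hoechst libraries, in 45.2 and 44.1% of Green and Orange libraries of the benzene run, and in 76 and 84.4% of the imatinib run. ARNTL, its partner (ENSG00000133794, chromosome 11, 13298199 to 13408813), had 22, 8, 1, 10 and 5 reads over all libraries of the Hoechst run, benzene-run Green and Orange, and imatinib-run Green and Orange. It passed 2 reads in 1 library each of the Hoechst run and the 2 Green groups and in no Orange library, 0 of 34 and 0 of 45 libraries, which allow shares of up to 8.82 and 6.67% (3 libraries of the total) or 10.3 and 7.87% (upper end of the exact binomial interval). The paralogues of the pair were no higher, with 1 read of NPAS2 and 9 of ARNTL2 in all kept libraries (8 and 1 in the Hoechst run and imatinib-run Green).

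Among the repressors, PER2 (ENSG00000132326, chromosome 2, 239152685 to 239198743) differed in level between the runs. Its median was 0.946 CPM in the Hoechst run, where values reached 346. Benzene-run medians were 10.4 CPM in Green (highest 419) and 40.9 in Orange (highest 257), and in the imatinib run 92.8 in Green (highest 369) and 75.4 in Orange (highest 578). Every group held libraries at 0 CPM, and all ranges overlapped. PER2 was detected in 45.1% (exact 95% binomial interval 34.1 to 56.5) of Hoechst libraries, 61.3 and 70.6% of the benzene run and 92.0 and 93.3% of the imatinib run (80.8 to 97.8 in Green). When libraries were thinned to 500000 reads the shares were 43.8% in the Hoechst run and 90.0 and 86.7% in Green and Orange of the imatinib run.

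PER1, the paralogue of PER2 that many cells induce as an immediate early gene (ENSG00000179094, chromosome 17, 8043790 to 8059824), was sparse. In the Hoechst run its median was 0.588 CPM and its highest value 91. Both stains of the benzene run had a median of 0, with a highest value of 161 CPM in Green and 198 in Orange. In the imatinib run Green libraries ranged from 0 to 256 CPM with a median of 1.19, and Orange libraries from 0 to 18.9 with a median of 0. The untreated imatinib-run and Hoechst libraries thus had the highest medians, the highest Hoechst value lay below those of the benzene run, and the ranges of all groups overlapped at 0. Few libraries carried most of its reads: 1 library held 90.2% of the PER1 reads of benzene-run Green and another 99.3% of those of benzene-run Orange, and 3 libraries held 61.3% of those of imatinib-run Green.

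The cryptochromes CRY1 and CRY2 are light-independent repressors of the activating pair in mammals. CRY1 (ENSG00000008405, chromosome 12, 107385142 to 107487327) had medians of 8.18 CPM in the Hoechst run (highest 237), 0.696 and 0.642 CPM in Green and Orange of the benzene run (highest 378 and 119), and 4.04 and 4.80 CPM in Green and Orange of the imatinib run (highest 246 and 135). It was detected in 70.7% of Hoechst libraries, in 32.3 and 35.3% of the benzene run and in 58 and 68.9% of the imatinib run. CRY2 (ENSG00000121671, chromosome 11, 45868669 to 45904799) had a median of 0 in all groups but imatinib-run Green, where it was 1.64 CPM. Its libraries reached 1085 CPM in the Hoechst run, 15.5 and 147 CPM in Green and Orange of the benzene run, and 109 and 460 CPM in the imatinib run. In the Hoechst run that 1 library at 1085 CPM held 51.5% of all CRY2 reads. CRY2 was detected in 37.8% of Hoechst libraries, 6.45 and 20.6% of the benzene run and 48 and 35.6% of the imatinib run.

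The REV-ERB genes differed from each other. NR1D2 (ENSG00000174738, chromosome 3, 23986777 to 24022108) was detected in 32.9% of Hoechst libraries and in 9.68 and 8.82% of Green and Orange of the benzene run, at medians of 0 CPM. In the imatinib run its Green libraries ranged from 0 to 202 CPM with a median of 1.14 and 46% detected, and its Orange libraries from 0 to 30.7 CPM with a median of 0.703 and 24.4% detected. NR1D1 (ENSG00000126368, chromosome 17, 38249046 to 38256842) was all but absent from the Hoechst run, with 22 reads and 3.66% of libraries, and was detected in 38 and 20.0% of Green and Orange libraries of the imatinib run. Its highest values there were 170 and 64.5 CPM. In benzene-run Orange 98.5% of its 816 reads came from library 43, at 539 CPM. NR1D1 shares 473 of its exon bases with THRA on the other strand, and since the strand setting of the counting was not given in the sources used here, reads of both genes there cannot be told apart.

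BHLHE40 (DEC1), a repressor that competes for E-boxes and also responds to hypoxia and other stress (ENSG00000134107, chromosome 3, 5021122 to 5027008), separated the runs most. Hoechst libraries ranged from 0 to 1650 CPM with a median of 194. Medians of the benzene run were 32 CPM in Green (0 to 911) and 32.8 in Orange (0.770 to 1908), and in the imatinib run 1.39 in Green (0 to 318) and 1.69 in Orange (0 to 280). It was detected in 97.6, 87.1, 85.3, 42 and 48.9% of libraries in that order. The mean of log2(CPM + 1) was 7.31 ± 1.75 (SD over 82 libraries) in the Hoechst run against 1.94 ± 2.33 in imatinib-run Green (50 libraries) and 2.61 ± 2.79 in imatinib-run Orange (45 libraries). Those were the only pairs of groups among all clock genes whose ranges of mean ± SD did not overlap. BHLHE40 shares 451 of its 3516 exon bases with BHLHE40-AS1, with the same limit on strand.

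DBP, a PAR bZIP factor that carries clock output to D-box genes (ENSG00000105516, chromosome 19, 49133287 to 49140636), was detected in 4, 2, 2, 4 and 3 libraries of the Hoechst run, benzene-run Green and Orange and imatinib-run Green and Orange. Its highest value was 175 CPM, in a Hoechst library that held 85.8% of that group's DBP reads. It shares 661 exon bases with SPHK2 on the other strand.

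**Figure D2:**
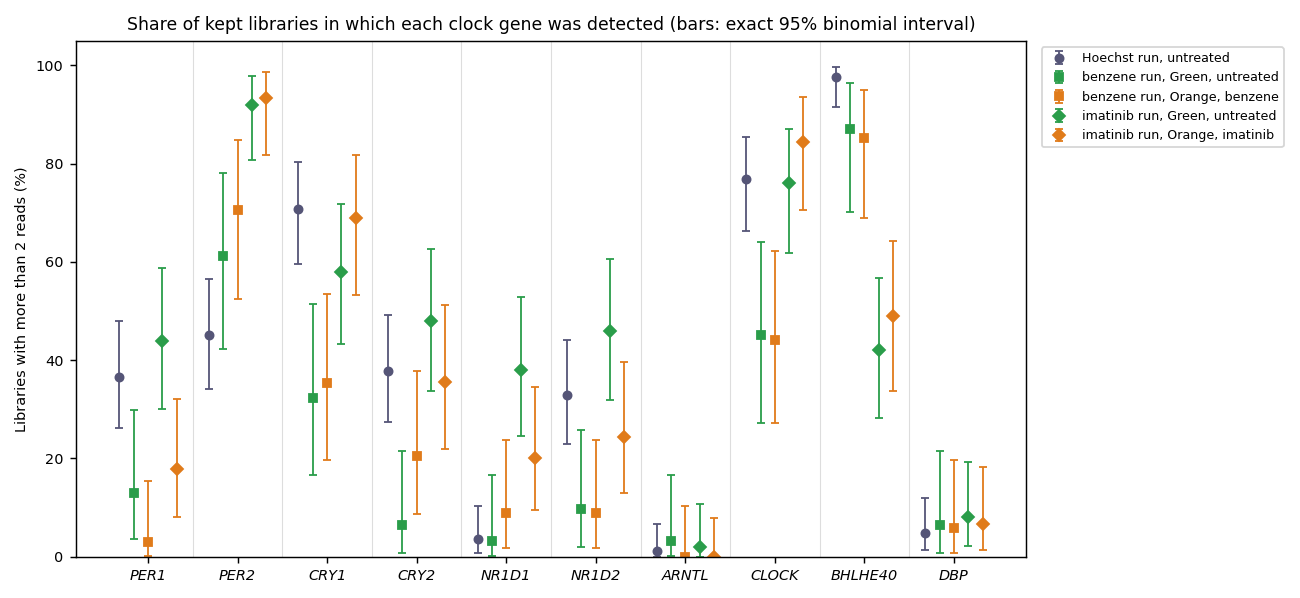
Share of kept libraries with more than 2 reads of each clock gene (y axis, percent) in the 5 groups, with exact 95% binomial intervals that cover counting error only. PER2 lies at 45.1% in the Hoechst run and 93.3% in imatinib-run Orange, and BHLHE40 at 97.6% in the Hoechst run and 42% in imatinib-run Green. PER1, CRY2, NR1D1 and NR1D2 lie higher in Green than in Orange of the imatinib run, although the summed level of CRY2 was higher in Orange.

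PER1 and NR1D2 were the clock genes with the lowest ratios of Orange against Green in the imatinib run. The summed reads, with 1 CPM added before the log (as for every log2 ratio and count past 2-fold, but not for printed folds), gave PER1 a log2 ratio of Orange against Green of -2.79, from 94 against 1099 reads (1.66 against 17.4 CPM, 10.5-fold higher in Green with a counting interval of 8.51 to 13.1). PER1 was detected in 8 of 45 Orange and 22 of 50 Green libraries, 17.8 against 44%, and in 8.89 against 28% at 500000 reads per library. Leaving out any 1 library gave log2 ratios from -2.97 to -2.29, the latter without Green library 54. The size of the PER1 difference depended on the weight of high libraries, since the means of log2(CPM + 1), 0.80 ± 1.23 and 1.85 ± 2.22 (SD over libraries), differed by only 1.05, less than the SD within Green. Over all settings tried the log2 ratio lay between -3.32 and -1.05.

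NR1D2 followed PER1, with a log2 ratio of -2.04 from 162 against 938 reads (5.21-fold higher in Green, counting interval 4.40 to 6.19). It was detected in 11 of 45 Orange and 23 of 50 Green libraries, with log2 ratios of -2.28 to -1.66 when any 1 library was left out. The size of the NR1D2 difference also depended on the weight of high libraries. Its means of log2(CPM + 1) were 1.07 ± 1.41 in Orange and 2.06 ± 2.26 in Green (SD over libraries). Over all settings tried its log2 ratio lay between -2.34 and -0.95. NR1D1 had a log2 ratio of -0.90 (-1.22 to -0.40 without 1 library) and was detected in 9 Orange and 19 Green libraries. PER1, NR1D1 and NR1D2 thus had lower shares and lower summed levels in Orange.

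The other clock genes had log2 ratios between -0.26 and 0.60. PER2 had a log2 ratio of -0.20 (89.1 against 102 CPM), CRY1 of -0.26, CRY2 of 0.34, CLOCK of 0.44 and BHLHE40 of 0.60. CRY1 and CRY2 changed sign when 1 library was left out (highest 0.0026 for CRY1 without Green library 88, lowest -0.43 for CRY2 without Orange library 21). ARNTL and DBP, at no more than 0.698 CPM in either stain, had log2 ratios of -0.09 and -0.25 that also changed sign without 1 library. BHLHE40 stood at 1.17 without Green library 62.

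All clock genes taken, 7 of 10 had a lower summed level in Orange of the imatinib run. Of these, CRY1, ARNTL and DBP changed sign without 1 library, and the count has no share over all genes beside it. In that run, 8 of the clock genes were detected in at least 20% of libraries. Of the 8, 5 were lower, against 52.8% of all 10834 genes that met this limit, and 2 were at least 2-fold lower, against 3.83%. None was at least 2-fold higher, against 3.05% of all genes. PER1 reached 20% of libraries in Green only. The median log2 ratio of the 8 was -0.23, beside -0.02 over all genes. The choice of the clock genes used this contrast, so nothing is read from these counts.

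PER1 and NR1D2 were found in the same library in 10 of the 50 Green libraries, and in 12 and 13 further libraries singly. In Orange both were found in 1 of 45 libraries. PER1 and NR1D2 were each detected less often in Orange, in 8 and 11 libraries against 22 and 23 in Green. The joint counts depend on these separate counts, and no link between the 2 genes is read from them. Each of the 22 Green and 8 Orange libraries with PER1 also had PER2, which was detected in nearly all libraries of the run.

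Only PER2, CRY1, CLOCK and BHLHE40 met the 20% limit in the benzene run. PER2 had a log2 ratio of Orange against Green of 0.61 (59.3 against 38.5 CPM, 24 of 34 against 19 of 31 libraries), with values of 0.45 to 1.14 when any 1 library was left out, the latter without Green library 68. CLOCK and BHLHE40 both had 0.38, and each changed sign without 1 Orange library (-0.03 for CLOCK without library 41, -0.08 for BHLHE40 without library 56). CRY1 had -1.20 (15.7 against 37.2 CPM), which moved to -0.57 without Green library 49, and its shares of libraries were alike at 12 of 34 and 10 of 31.

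PER1 gave no stable direction there. Its log2 ratio was -0.20 (5.95 against 7.00 CPM), with 1 Orange and 4 Green libraries detected. The value was -2.94 without Orange library 56 and 2.02 without Green library 52. NR1D1 had a log2 ratio of 3.98, which was 0.09 without Orange library 43, and NR1D2 had -0.49 on 40 and 69 reads. CRY2 had 2.47 (7.82 against 0.591 CPM, 7 of 34 against 2 of 31 libraries), with a lowest value of 1.69 without Orange library 44. DBP had -1.17 and ARNTL -0.22, on 23 against 100 and 1 against 8 reads, and DBP moved to -0.44 without Green library 5.

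Of the 4 clock genes that met the limit in the benzene run, 1 was at least 2-fold lower, against 10.6% of all 9530 genes, and none was at least 2-fold higher, against 11.6%. Lower values were seen for 1 of the 4, against 47.4% of all genes. The median log2 ratio of the 4 was 0.38, beside 0.04 over all genes. With 4 genes these shares cannot be told from the background.

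**Figure D3:**
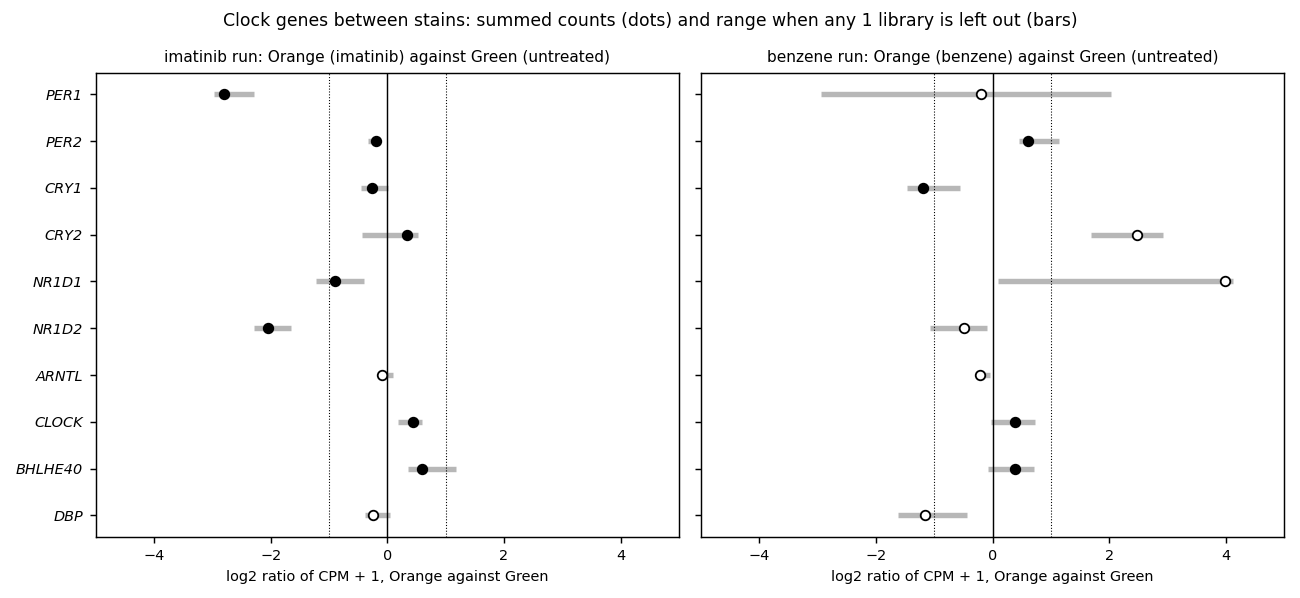
Log2 ratio of CPM + 1 of the summed reads, Orange against Green, for each clock gene in the imatinib run (left) and the benzene run (right). Dots are filled where the gene was detected in at least 20% of the run's libraries and open otherwise, bars span the values when any 1 library is left out, and dotted lines mark 2-fold. PER1 and NR1D2 lie past 2-fold in the imatinib run with short bars, whereas the bar of PER1 in the benzene run spans -2.94 to 2.02. Bars do not cover the other settings tried, over which NR1D2 lay between -2.34 and -0.95 in the imatinib run.

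Orange and Green were tested over both CellTracker runs on the 4 sums of reads, with the run as a term, by the quasi-likelihood test of edgeR with Benjamini-Hochberg adjustment. None of the 17684 genes tested passed an adjusted p of 0.05 (0.0% called), while 439 had an unadjusted p under 0.05. DESeq2, run without that filter on low counts on 30897 genes, called 206, and edgeR on the same 30897 genes called none (680 unadjusted). Of the clock genes 9 were among those tested and none was called by either tool. Nothing is read from this, since the test holds the imatinib run used to choose them. The log2 fold changes over both runs ranged from -1.82 for PER1 and -1.67 for NR1D2 to 2.59 for NR1D1. PER1 entered this test with the imatinib run that it was noted in. The choice of the clock genes used the contrast of that run, so none of their values here is independent. They are given as a description. With 2 runs that each gave 1 sum per stain and different drugs, a p that missed the threshold does not show that the clock genes were alike.

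The untreated groups also differed in clock gene levels, each being 1 batch, so that no test between runs was possible. Against Green of the benzene run, Green of the imatinib run had a BHLHE40 log2 ratio of -2.91 (18.4 against 145 CPM, -3.48 to -2.59 without 1 library). PER2 stood at 1.39 (1.32 to 1.92) and CLOCK at 1.08 (0.91 to 1.41) in the same comparison, while CRY1 stood at -0.70 (-0.96 to -0.07). The direction of CRY1 turned to 0.67 for the difference of mean log2(CPM + 1), and its share of libraries was higher in imatinib-run Green, 58 against 32.3%. BHLHE40 was thus lower and PER2 higher in imatinib-run Green than in benzene-run Green. Both Green groups carried the same dye and passage label and no drug, and the cause of the difference was not tested.

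CRY2, NR1D1, NR1D2 and PER1 had log2 ratios of 3.58, 3.09, 2.59 and 1.20 between these Green groups. PER1 ranged from 0.70 to 3.43 when 1 library was left out. Of these Green groups, only that of the imatinib run reached 20% of libraries for any of those 4 genes, so that meeting the limit already required a difference. Of the 8 clock genes that met the limit, 6 were at least 2-fold higher in imatinib-run Green, against 18.2% of 10249 genes, and 1 at least 2-fold lower, against 11.5%. The median number of genes detected per library was also higher there, 8082 against 5963, and its part in these values was not tested.

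The Hoechst run was compared in the same way. By the paper, its experiment was sequenced on another HiSeq model with longer reads than the CellTracker experiments. Cells stained as dead were sequenced in it and excluded from the CellTracker experiments. These differences coincide with the run and cannot be told apart from it. BHLHE40 was 14.3-fold higher than in imatinib-run Green (263 against 18.4 CPM, log2 ratio 3.77) and 1.81-fold higher than in benzene-run Green (log2 ratio 0.85). PER2 had a log2 ratio of -1.80 and PER1 of -1.34 against imatinib-run Green, and -0.41 and -0.14 against benzene-run Green. Against imatinib-run Green, PER1 ranged from -1.56 to -0.84 when 1 library was left out. Its means of log2(CPM + 1) were 1.37 in the Hoechst run and 1.85 in imatinib-run Green. Against benzene-run Green, PER2 turned to 0.12 when 1 Green library was left out. CRY1 and CLOCK had log2 ratios of -0.07 and 0.39 against imatinib-run Green, and CRY1 turned to 0.29 for the difference of mean log2(CPM + 1).

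Against imatinib-run Green, 2 of the 7 clock genes that met the limit were at least 2-fold lower in the Hoechst run (12.3% of all 10813 genes) and 1 at least 2-fold higher (20.0%). The 2 lower genes were PER2 and PER1, and PER1 fell short of 2-fold, at -0.84, when 1 library was left out. Against benzene-run Green, 3 of 7 were at least 2-fold higher (25.7% of 10505 genes), namely CRY2, NR1D2 and CLOCK, and none at least 2-fold lower (11.5%). CRY2 and NR1D2 met the limit there only through the Hoechst run. The PER1 value against benzene-run Green moved from -0.14 to 2.08 when 1 Green library was left out, and to 0.79 for the difference of mean log2(CPM + 1).

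Of 26 further clock genes (kinases, ubiquitin ligases, co-repressors and paralogues), 16 met the 20% limit in the imatinib run, 9 with lower and 7 with higher summed levels in Orange (52.8% of all genes were lower). With 1 CPM added none was past 2-fold. The highest log2 ratio was 0.97, for FBXW11, a ligase that acts on PER proteins, whose fold without the added 1 CPM was 2.09 and whose log2 ratio was 0.50 without Orange library 81 and 1.20 without Green library 43. In the benzene run 15 met the limit, of which 9 were lower and 6 higher in Orange (47.4% of all genes were lower) and 4 at least 2-fold lower (10.6% of all genes). GSK3B, a kinase that acts on several clock proteins, was lowest at -1.84 (-1.16 without Green library 57) and the PER kinase CSNK1E highest at 0.94 (0.40 without Orange library 36 and 1.46 without Green library 62). PER3, the third PER gene, had summed levels of 31.1 to 39.2 CPM in the 5 groups, medians of 4.65 to 24.5 CPM and shares of 58.1 to 80% of libraries. Its log2 ratio was -0.08 in the imatinib run (-0.18 to 0.07 without 1 library) and 0.07 in the benzene run (-0.47 without Orange library 61 to 0.47 without Green library 67).

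A list of 10 rapid CREB and SRF targets was set beside PER1 because PER1 is known to be such a target. In the imatinib run 8 met the limit, of which 6 were lower in Orange, against 52.8% of all genes, all 6 by at least 2-fold, against 3.83%. FOSB and SIK1 reached 20% of libraries in Green only. NR4A2 stood at -0.58 without Green library 23 and SIK1 at -0.90 without Green library 79, both short of 2-fold. The list was chosen with earlier results of these data known, so nothing is read from these counts. The median log2 ratio of the 8 was -1.19, beside -0.02 over all genes. FOSB was lowest, at -2.71 (5.20 against 39.5 CPM, 8 of 45 against 33 of 50 libraries), and -3.70 without Orange library 91. JUNB was highest at 0.57, with 0.09 without Orange library 48 and 1.26 without Green library 61. In the benzene run 7 met the limit, 4 lower and 3 higher, from -1.65 for the phosphatase gene DUSP1 (-1.14 without Green library 20) to 2.13 for JUNB (1.26 without Orange library 38). Of the 7, 1 was at least 2-fold lower and 2 were at least 2-fold higher, among them NR4A2, at 0.11 without Orange library 56. Of all genes, 47.4% were lower there, and 10.6 and 11.6% were at least 2-fold lower and higher. The link of these genes to PER1 was not tested.

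Of 10 clock output genes, 8 met the limit in the imatinib run, 5 lower and 3 higher (52.8% of all genes were lower). They ranged from -1.74 for KLF9 to 0.69 for NOCT, which encodes a rhythmic phosphatase (0.13 without Orange library 21). KLF9 was detected in 15.6% of Orange and 42% of Green libraries, so it reached 20% in Green only. With 1 CPM added KLF9 alone was past 2-fold (3.83% of all genes were at least 2-fold lower), while GADD45A, named after its value was seen, was 2.09-fold higher in Green without it. In the benzene run 7 met it, 4 lower and 3 higher and none past 2-fold, from -0.80 for KLF10 (-0.08 without Green library 52) to 0.67 for NOCT (0.32 without Orange library 53 and 1.03 without Green library 50). Beside these counts, 47.4% of all genes were lower and 10.6 and 11.6% were at least 2-fold lower and higher.

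**Figure D4:**
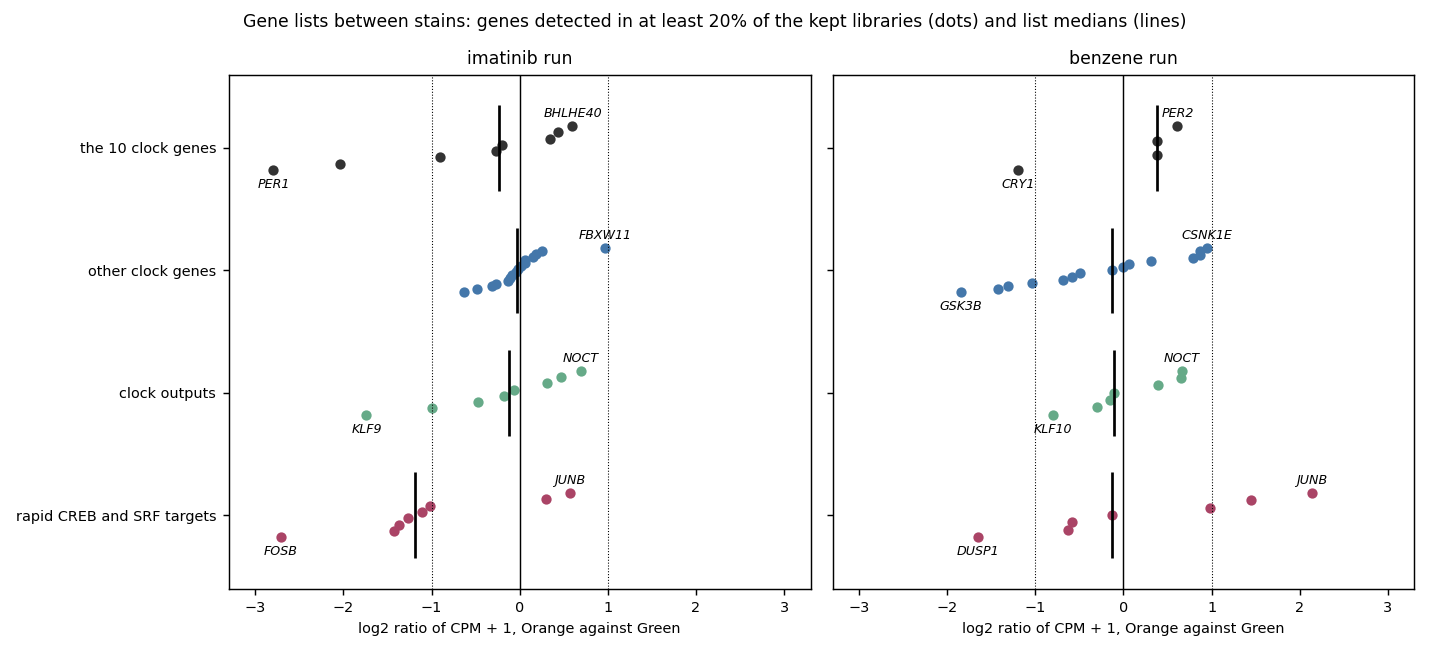
Log2 ratio of CPM + 1, Orange against Green, for the genes of each list detected in at least 20% of the run's libraries (dots), with list medians (vertical lines), in the imatinib run (left) and the benzene run (right). Dotted lines mark 2-fold, and some genes at the ends of the lists are named. In the imatinib run the rapid CREB and SRF targets have a median of -1.19 and the clock genes one of -0.23.

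The genes whose levels over libraries were most like those of a clock gene were ranked by Spearman correlation within each group, averaged over the 5 groups, among 6938 genes. For CLOCK these were UBQLN4 (0.35), TTLL5 (0.33) and TLK2 (0.30), and for PER2 TBRG4 (0.33), MRPL23 (0.31) and NDUFC2 (0.30). CRY1 was nearest to UFM1 (0.29), PRKAG1 (0.27) and ZNF83 (0.27), and BHLHE40 to EIF1AD (0.32), FSCN1 (0.31) and a gene without symbol, ENSG00000257742 (0.31). No clock gene was among them. All values were weak, the 242 libraries share depth and sparse counts, and no finding rests on them.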

How the data were processed

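RNA-seq libraries of K562 cells on the C1 (SMARTer chemistry) were analysed from the gene counts that the authors deposited. The authors trimmed reads with skewer, aligned them with HISAT2 to GRCh37 with ERCC sequences, marked duplicates with Picard and counted reads per Ensembl gene with featureCounts, with raw counts not normalized. The submitters' processing notes name Subread 1.5.0, Picard 1.92 and bcl2fastq 1.8.4 and 2.17.1.14. The strand setting and the handling of marked duplicates are not given in the sources used here. The deposited CPM table holds the authors' CPM with ERCC sequences in the total and was used only for an alternative detection limit. Of the benzene run, 4 titles had no column in the tables, and 4 columns that fitted no title were left unused.

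CPM were recomputed here per 1000000 reads on genes, without the 92 ERCC rows. A library was kept if its top 500 genes took at most 70% of its reads, as 242 of 263 did. Depth was 50358 to 2043351 reads per kept library. No 2 libraries had identical counts. Within a run each stain gave 1 sum, so log2 ratios (pseudocount 1 CPM) have no replicate check. Intervals (95%, exact Poisson or binomial) cover counting error only, since reads carry no molecular identifiers. Libraries are numbered as in their titles. Single libraries are not replicates of a treatment.

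Orange and Green were tested with edgeR 4.0.16 under R 4.3.3, and again with limma 3.58.1 and DESeq2 1.42.0, after a check on simulated data. The remaining steps ran in Python 3.11.15 (scipy 1.17.1, pandas 2.3.3, numpy 2.4.6, with matplotlib 3.10.9 for figures). GENCODE v44lift37 gave exon lengths and GRCh37 coordinates.

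The clock genes, lists and tests were chosen with earlier results of these data known. All clock genes are named, and of the other lists the gene with the lowest and the highest log2 ratio in each run, plus, for clock genes detected in at least 50% of libraries, the 3 genes with the most similar levels. PER3, NPAS2, ARNTL2, GADD45A, NR4A2, SIK1 and the cell type markers were named after their values were seen. The marker PECAM1 was not analysed here, and 1 gene that the rule names and 1 marker are not reported here. Alternatives were other scalings, pseudocounts, detection limits, library filters, tools and leaving out each library.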

Additional observations from a re-analysis of the deposited data

Results flagged for a closer look

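PER2 and NR1D1 had log2 ratios of opposite sign in the CellTracker runs whichever library was left out. The log2 ratio of PER2, Orange against Green, was -0.20 in the imatinib run and 0.61 in the benzene run, a difference of -0.81. That of NR1D1 was -0.90 and 3.98, a difference of -4.88, and the benzene-run value rests on Orange library 43, without which it was 0.09. The runs carried different drugs and were separate batches, and the difference was not tested for either gene.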

How the results depend on the processing

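No paired analysis was possible because the labels give no pairing, and Green and Orange of a run share no library number. Over 10 other settings for each of the 10 clock genes, 97 of 100 log2 ratios in the imatinib run and 98 of 100 in the benzene run kept their direction. A change of pseudocount cannot turn a direction, and each scaling moves all genes of a group alike, so agreement was partly fixed in advance. Leaving out single libraries is not in these counts, and it changed the sign of CRY1, CRY2, ARNTL and DBP in the imatinib run. In the benzene run it changed that of PER1, CLOCK and BHLHE40. The settings tried turned the ratio for CRY1 (0.07), CRY2 (-0.34) and ARNTL (0.00) in the imatinib run, and for CLOCK (-0.02) and BHLHE40 (-0.65) in the benzene run. Genes at least 2-fold lower in Orange numbered 1011 in the benzene run, 534 with a pseudocount of 10 CPM and 2541 without the detection limit, and 415, 60 and 1193 in the imatinib run. Of the 50 pairs of clock gene and group, 13 were detected in at least 50% of libraries, 25 with at least 1 read as the limit and 20 with a limit of 1 CPM on the authors' CPM values. DESeq2 called 206 genes (1659 at an unadjusted p under 0.05) between stains against 0 in edgeR and 0 in limma (555 unadjusted). Comparisons between untreated groups had 90 alternative values, chosen after seeing the data. Detection of PER1, NR1D1 and NR1D2 is limited by sparse counts.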
